A study of Mus musculus with 44 samples.

Results

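Gene expression in the liver was compared between Ripk3 knockout (Ripk3KO) and wild-type (WT) mice that both ate normal chow, by RNA sequencing. The members are the 6 Ripk3KO and 6 WT libraries whose labels give that genotype and the control diet, 12 of the 44 libraries of the series. Mice entered at 2 months of age and stayed on their diet for 6 months. For reference, the text also uses WT and Ripk3KO mice on choline-deficient diets, either low in fat (CD-LFD, 6 and 3 libraries) or high in fat (CD-HFD, 6 and 4), and 6 libraries labelled as Mlkl knockout (MlklKO) on chow. The strain, sex, the way the alleles were made, and whether WT mice were littermates are not given in the sources used here, so genotype, breeding and housing cannot be told apart. Nothing in the labels says more than that the libraries are separate samples, so p-values measure the spread between these samples. Ripk3KO replicates 1 and 2, 3 and 4, and 5 and 6 were most alike. Between their counts, chi-square per degree of freedom was 9.56, 14.8 and 11.8, and 25.1 to 99.0 in other Ripk3KO pairs. In WT, replicates 5 and 6 had 18.3, and 53.5 to 110 against replicates 1 to 4. Whether such libraries share an origin is not given in the sources used here. The tests treat all libraries as independent, and p-values would be too small if they are not.

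RIPK3 is a kinase that RIPK1, ZBP1 or TICAM1 recruits downstream of death receptors, nucleic acid sensors and Toll-like receptors. It phosphorylates MLKL, which then breaches the plasma membrane, a lytic cell death called necroptosis. The study used the 2 knockouts as livers in which necroptosis is blocked, and the chow groups give the genotype difference without the choline-deficient diets. In the liver, cytokines of the IL-6 and IL-1 families make hepatocytes secrete acute phase proteins such as serum amyloid A, through STAT3, C/EBP factors and NF-kappaB. Metallothioneins are small zinc-binding proteins that the zinc sensor MTF1 switches on through metal response elements.

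Several acute phase genes and Mt1 are among the rises the results turn on, so the start regions of 4 of them are shown, read from RefSeq on GRCm38.p6. Each runs from 250 bases before to 50 bases after the annotated start, 5′ to 3′ in the direction of the gene. In the Mt1 region (chr8:94178839-94179138, plus strand) capitals mark the core of the metal response element, TGCNCNC on either strand. In the Saa1 (chr7:46742931-46743230, minus strand), Saa2 (chr7:46751583-46751882, plus strand) and Lcn2 (chr2:32387690-32387989, minus strand) regions capitals mark TTGCNNAA on either strand, a C/EBP-type sequence.
Mt1: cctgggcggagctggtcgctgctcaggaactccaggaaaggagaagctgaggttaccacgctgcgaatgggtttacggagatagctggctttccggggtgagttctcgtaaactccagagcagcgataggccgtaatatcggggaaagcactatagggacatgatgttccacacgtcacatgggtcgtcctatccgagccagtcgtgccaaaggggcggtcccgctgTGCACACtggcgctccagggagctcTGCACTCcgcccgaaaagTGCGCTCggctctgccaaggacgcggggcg
Saa1: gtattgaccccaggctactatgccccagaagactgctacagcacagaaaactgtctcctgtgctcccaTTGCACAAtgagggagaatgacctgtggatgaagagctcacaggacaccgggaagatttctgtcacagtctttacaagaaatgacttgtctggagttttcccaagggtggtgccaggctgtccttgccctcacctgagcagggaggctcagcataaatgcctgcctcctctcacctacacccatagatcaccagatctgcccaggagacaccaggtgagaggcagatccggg
Saa2: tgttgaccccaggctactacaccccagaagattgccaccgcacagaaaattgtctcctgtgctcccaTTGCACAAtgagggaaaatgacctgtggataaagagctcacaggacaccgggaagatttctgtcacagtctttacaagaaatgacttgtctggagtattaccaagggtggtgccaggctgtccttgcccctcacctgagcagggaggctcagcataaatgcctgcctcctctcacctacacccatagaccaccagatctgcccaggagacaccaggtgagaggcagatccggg
Lcn2: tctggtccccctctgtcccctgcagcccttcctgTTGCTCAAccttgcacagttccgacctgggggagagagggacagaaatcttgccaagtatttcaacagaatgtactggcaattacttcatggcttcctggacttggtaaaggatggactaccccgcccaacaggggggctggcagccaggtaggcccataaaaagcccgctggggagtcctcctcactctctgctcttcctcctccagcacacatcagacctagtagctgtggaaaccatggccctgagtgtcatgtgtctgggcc
The Mt1 region held 3 matches to TGCNCNC, and 6.95% of 27018 RefSeq start regions of that length held 3 or more. The Saa1, Saa2 and Lcn2 regions held 1 match each to TTGCNNAA, a sequence found in 10.8% of all start regions. It was found in 11 of the 20 acute phase list genes that matched the table by symbol. A STAT3-type sequence, TTCNNNGAA, was in 7 of those 20 and in 8.47% of all regions. An NF-kappaB-type sequence was in 1 of those 20 and in 4.35% of all regions. None of the 4 printed regions held the STAT3-type or the NF-kappaB-type sequence. A match is a run of letters and not evidence of binding.

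Libraries were shallow, with 2476268 to 8087208 counts in WT and 4957345 to 8889872 in Ripk3KO. Several libraries stood apart. Mitochondrially encoded genes took 4.11, 3.22, 4.10, 1.47, 7.62 and 13.4% of counts in WT replicates 1 to 6, and 7.03, 5.61, 4.24, 3.47, 3.25 and 3.07% in Ripk3KO. WT replicates 5 and 6 had the largest shares of counts in predicted genes, 1.32% and 1.66%, against 0.887% to 0.986% in the other 4 WT libraries and 0.807% to 1.07% in Ripk3KO. The group means of that share, 1.13% ± 0.304 (SD, n = 6) and 0.911% ± 0.120 (n = 6), gave p = 0.134 in an exact permutation test (two-sided).

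Ripk3 was measured at 0.866, 0.853, 0.439, 1.30, 2.83 and 4.78 CPM (counts scaled to the library total) in WT replicates 1 to 6. In Ripk3KO it was 0, 0, 0.263, 0.251, 1.01 and 0 CPM. These values rest on 3 to 20 counts in WT and 0 to 9 in Ripk3KO, so Ripk3 did not pass the filter for the genewise test. The means of 1.84 ± 1.66 and 0.254 ± 0.392 CPM differed by an exact permutation test (p = 0.00866, two-sided, n = 6 and 6). In edgeR's fit without the filter the log2 difference was -2.32 with a Benjamini-Hochberg adjusted p of 0.187, which missed the threshold. Of 12 such fits that left out 1 library it was called in 1, that without the library labelled Ripk3KO replicate 5 (adjusted p = 0.0288). The library labelled Ripk3KO replicate 5, with 9 counts, lay inside the WT range, while the other 5 were below every WT library. That library is kept, and adjusted p without it are given for the named genes that lose the call. Mlkl, the substrate of RIPK3, did not pass the test, with a log2 difference (Ripk3KO minus WT) of -0.24 (SE 0.30, adjusted p = 0.786) by edgeR with Benjamini-Hochberg adjustment. Mlkl stood at 2.05, 2.90, 2.63, 3.52, 6.52 and 3.23 CPM in Ripk3KO replicates 1 to 6, highest in the library labelled Ripk3KO replicate 5.

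The comparison of the 12 libraries asked what loss of Ripk3 changes in the liver of mice on chow. In edgeR's quasi-likelihood fit, 45 of 11268 genes (0.399%) passed a Benjamini-Hochberg adjusted p of 0.05 and are called changed below. Of these, 33 (0.293% of all tested) were higher in Ripk3KO and 12 (0.106%) lower, and 42 differed at least 2-fold (31 higher and 11 lower). The median log2 difference over all genes tested was -0.03, 46.1% had a positive difference, and 11.9% an unadjusted p under 0.05. Groups did not overlap in 32 of the 45 genes, which the test itself favours, and in 1.05% of all genes tested. With scaling to library size alone the split was 29 higher and 22 lower, and the median over all genes was -0.12. The number was 8 without WT replicate 1 or without Ripk3KO replicate 3, and 77 without Ripk3KO replicate 1. It was 16 without WT replicate 3, 13 without WT replicate 5, 14 without Ripk3KO replicate 4 and 11 without Ripk3KO replicate 6, and 76 and 72 without WT replicate 2 and Ripk3KO replicate 2. Without the library labelled Ripk3KO replicate 5 it was 31, 23 of them among the 45, so that 22 of the 45 lost the call. All 45 kept their direction, which the shared libraries favour. The genes called in all 12 fits without 1 library were Cers6, Gm3375, Il1r1, Mt1, Tsc22d1 and Ttll8, and the other 39 lost the call in at least 1. The split between directions also moved. It was 334 higher and 331 lower in a fit of all 44 libraries, which also changed the genes tested (14862) and the scaling factors, 1 and 6 within 1 clock phase (defined below), 2 and 4 with that phase as a covariate, and 24 and 24 without WT replicate 4. In bulk liver, fewer cells of a type and less RNA per cell cannot be told apart.

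Acute phase genes were the largest group among the rises, and 4 of the 6 Ripk3KO livers carried most of it. Of 23 tested members of the acute phase list, 8 were called higher (0.293% of all genes were), none was called lower, and 22 had an unadjusted p under 0.05 and a positive difference (5.06% of all genes). The median log2 difference of the list was 1.5. Serum amyloid A1 and A2 are liver-made apolipoproteins of inflammation. Levels below are CPM scaled by TMM, in replicates 1 to 6.

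Saa1 (ENSMUSG00000074115) stood at 22.6, 19.8, 15.8, 29.8, 12.3 and 43.7 in WT and 13.2, 37.9, 2071, 2806, 9088 and 5144 in Ripk3KO, a log2 difference of 7.0 (SE 1.22, adjusted p = 0.0256). Saa2 stood at 6.34, 4.63, 7.48, 8.29, 6.38 and 39.5 in WT and 6.40, 12.3, 1865, 2419, 9023 and 5040.1 in Ripk3KO, a difference of 7.90 (SE 1.47, adjusted p = 0.0339). Ripk3KO replicates 3 to 6 were far above every WT library for both genes, whereas Ripk3KO replicates 1 and 2 lay inside the WT range, so the groups overlapped. Saa1 and Saa2 are near-identical copies, and how reads shared by paralogs were counted is not given in the sources used here, so the division of reads between them is uncertain. Lcn2, or lipocalin 2, is an iron-siderophore-binding protein. It stood at 1.52, 1.71, 2.21, 2.15, 0.456 and 6.59 in WT and 2.52, 5.44, 189.7, 178, 805 and 764 in Ripk3KO, a difference of 6.96 (SE 1.23, adjusted p = 0.0256). Again Ripk3KO replicates 1 and 2 fell within the WT range and the other 4 did not.

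Saa3, the amyloid A gene that macrophages also make, stood at 2.21, 5.37, 2.55, 4.30, 2.73 and 6.34 in WT and 8.15, 6.48, 22.1, 31.8, 129 and 166 in Ripk3KO (log2 difference 3.92, SE 0.77, adjusted p = 0.0377). Here no Ripk3KO library fell into the WT range, though replicates 1 and 2 were again the lowest. Saa4, the constitutive family member, ranged from 197 to 289 in WT and from 339 to 1318 in Ripk3KO (log2 difference 1.77, SE 0.30, adjusted p = 0.0222), also without overlap. Steap4, a metalloreductase, stood at 107, 159, 108, 106, 18.2 and 27.1 in WT and 81.1, 149.7, 1364, 1150.1, 1196 and 1598 in Ripk3KO (log2 difference 3.38, SE 0.69, adjusted p = 0.0489). Serpina3n, a secreted protease inhibitor, had a median of 216 in WT and 1465 in Ripk3KO (log2 difference 2.57, SE 0.49, adjusted p = 0.0356). For Steap4 and Serpina3n the groups overlapped through Ripk3KO replicates 1 and 2. Lbp, which presents bacterial lipopolysaccharide to its receptor, stood at 24.2 to 77.2 in WT and 94.1 to 324 in Ripk3KO (log2 difference 1.73, SE 0.33, adjusted p = 0.0339), with no overlap.

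**Figure D1:**
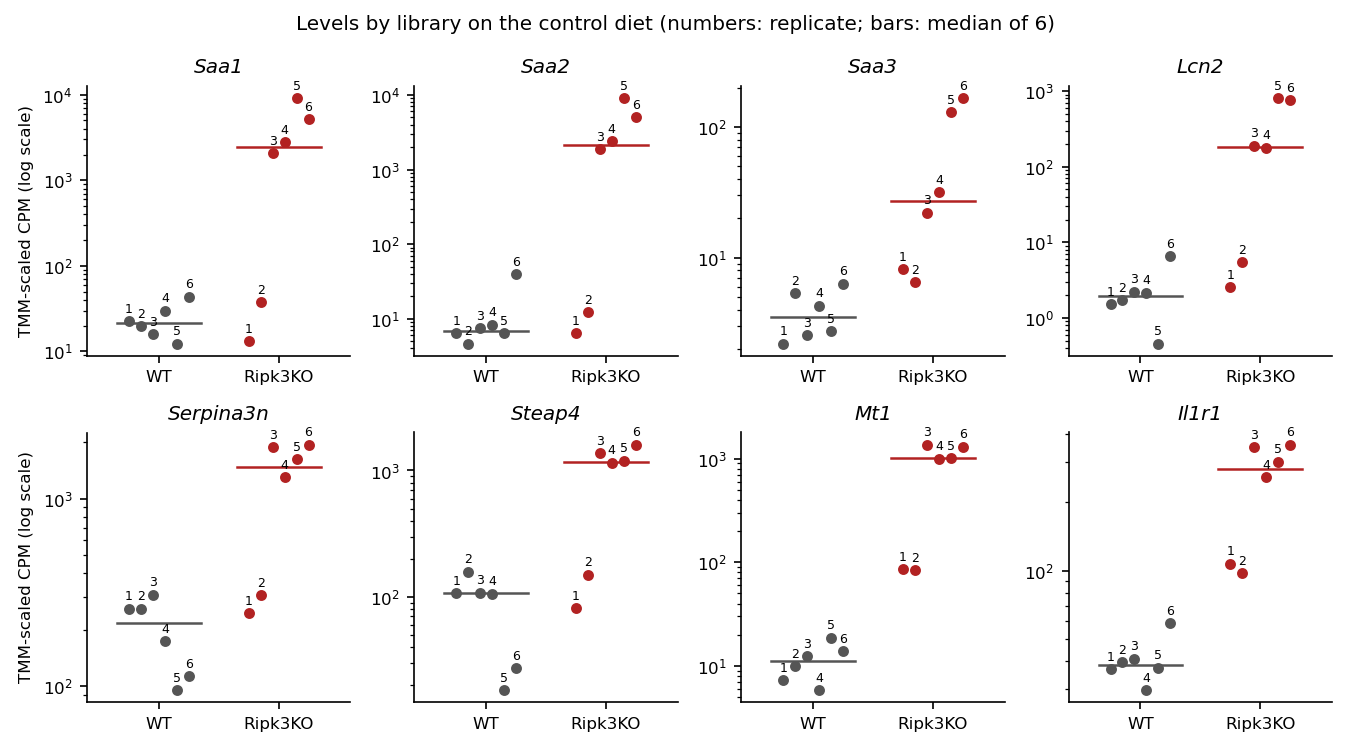
TMM-scaled CPM on a log axis of 8 called genes in each of the 6 WT (grey) and 6 Ripk3KO (red) control-diet libraries, with replicate numbers beside the points and bars at the medians. Ripk3KO replicates 1 and 2 sit in or near the WT range for Saa1, Saa2, Lcn2, Serpina3n and Steap4, and between WT and the other 4 Ripk3KO libraries for Mt1 and Il1r1.

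The other 15 tested members did not reach an adjusted p of 0.05 by edgeR with Benjamini-Hochberg adjustment. Haptoglobin, Hp, which clears free haemoglobin, ranged from 2816 to 5379.7 in WT and from 4479 to 18644 in Ripk3KO (log2 1.57, adjusted p = 0.055). Orm2, an orosomucoid, ranged from 2.15 to 18.7 and from 4.18 to 924 (log2 4.81, adjusted p = 0.0913), with Ripk3KO replicates 5 and 6 above all others. The fibrinogen chains Fga, Fgb and Fgg differed by 1.5, 1.05 and 1.22, with adjusted p of 0.21, 0.128 and 0.11. Hamp, which encodes the iron hormone hepcidin, was the 1 member with a negative difference (-0.39, adjusted p = 0.732). Socs3, the feedback inhibitor that STAT3 induces, differed by 1.26 (adjusted p = 0.207).

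**Figure D2:**
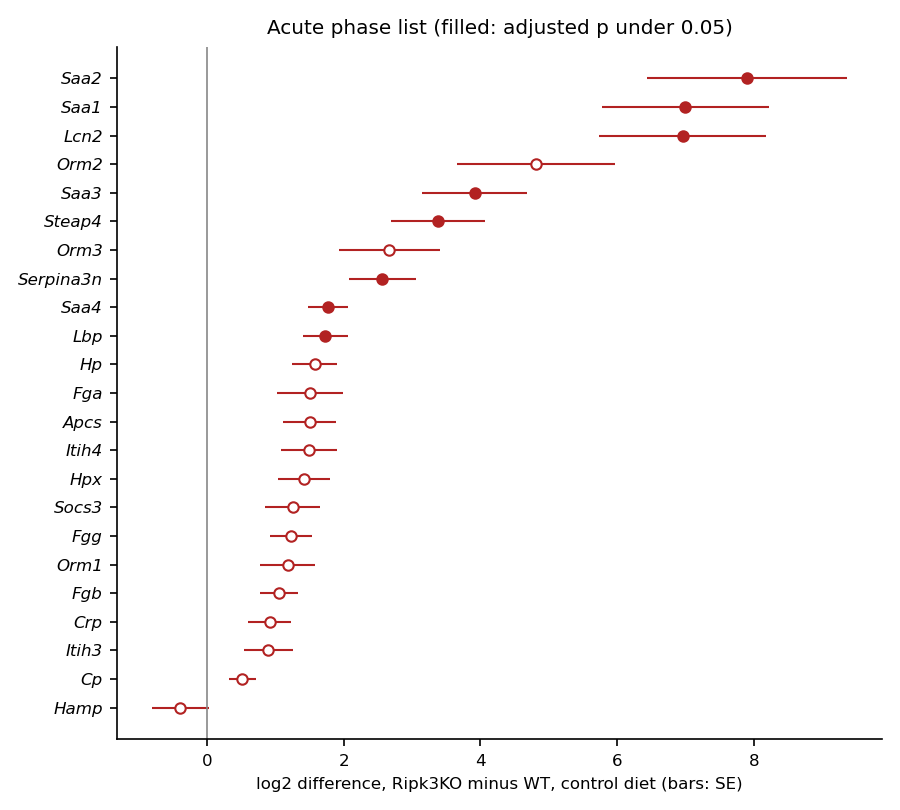
The log2 difference (Ripk3KO minus WT, control diet) of the 23 tested acute phase genes, with bars for the SE and filled points for an adjusted p under 0.05. All but Hamp lie right of 0, and the 8 filled points run from 1.73 (Lbp) to 7.90 (Saa2).

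Counted by library, 21 of the 23 genes were above the highest WT library in Ripk3KO replicate 3 and 22 in each of replicates 4, 5 and 6. In replicates 1 and 2 the numbers were 4 and 6. In 21 of the 23 genes replicates 1 and 2 were the lowest of the Ripk3KO libraries, and over the 33 genes called higher this held for 21. The library labelled Ripk3KO replicate 5, with 9 Ripk3 counts, was the highest Ripk3KO library in 16 of the 23. Without it Saa1, Saa2, Saa4 and Lcn2 differed by 6.34, 7.20, 1.6 and 6.46 and kept adjusted p of 0.0337, 0.0496, 0.0337 and 0.0339. The other 4 lost the call, as Saa3, Steap4, Serpina3n and Lbp had 0.0778, 0.0879, 0.0704 and 0.0713.

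Other values also varied among the Ripk3KO libraries, not all along the same split. Ripk3KO replicates 1 and 2 had the largest mitochondrially encoded and predicted-gene shares of the 6. The 7 Kupffer cell markers summed to 117, 50.6, 114, 146, 349 and 279 CPM in Ripk3KO replicates 1 to 6, with the highest sums in replicates 5 and 6, and to 192, 151, 189.5, 166, 204 and 207 in WT. None of the 7 markers was called, and Clec4f, which defines Kupffer cells in mice, differed by -0.30 (adjusted p = 0.73, edgeR with Benjamini-Hochberg adjustment). The 7 neutrophil markers summed to 5.43, 2.51, 14.3, 9.12, 14.8 and 7.93 CPM in Ripk3KO replicates 1 to 6, lowest in replicates 1 and 2, and to 4.69, 2.93, 12.1, 1.23, 5.01 and 11.7 in WT, and the defining marker Ly6g had 0 counts in WT and 2 in Ripk3KO. The 6 cholangiocyte markers summed to 47.2, 47.3, 52.4, 47.8, 90.9 and 99.0 in Ripk3KO, highest in replicates 5 and 6, and to 59.4, 48.8, 45.2, 58.0, 83.9 and 72.2 in WT. Most of that sum was Spp1, which differed by 0.30 (adjusted p = 0.681), and Krt19, which defines cholangiocytes, had 44 counts in WT and 37 in Ripk3KO. The part of these in the acute phase difference was not tested.

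The acute phase calls depended on which libraries were fitted. The number of called members was 22 in the fit of all 44 libraries (4.47% of all genes called), 17 by DESeq2 (2.33%), 15 without the filter (0.599%) and 2 by limma-voom (0.222%). It was 3 without WT replicates 5 and 6 (0.448%), and 0 with the replicate block (0.0532%) or within 1 clock phase (0.0589%). The median difference lay between 1.42 and 1.79 over these settings and the other scalings, while the differences of single members moved more. By limma-voom with Benjamini-Hochberg adjustment Saa1, Saa2 and Lcn2 differed by 4.93, 5.77 and 5.27 (adjusted p = 0.146, 0.211 and 0.32). With the replicate block in edgeR they differed by 5.66, 6.47 and 5.64 (adjusted p = 0.353, 0.307 and 0.176). Without WT replicate 1 the adjusted p of Saa1, Saa2, Saa3, Saa4, Lcn2, Lbp, Steap4 and Serpina3n were 0.0797, 0.097, 0.112, 0.0667, 0.0828, 0.0797, 0.114 and 0.0963, and without Ripk3KO replicate 3 that of Saa1 was 0.0618.

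Metallothionein 1 rose in all 6 Ripk3KO livers. Mt1 (ENSMUSG00000031765) stood at 7.30, 10, 12.4, 5.83, 18.7 and 13.9 CPM in WT and 86.4, 83.9, 1363, 998, 1019 and 1302 in Ripk3KO, with no overlap and a log2 difference of 6.12 (SE 0.73, adjusted p = 0.00161). Replicates 1 and 2 were again the lowest of the 6, yet above every WT library. Mt1 was called in all 12 fits that left out 1 library (adjusted p 0.000181 to 0.00863). Mt2 lies beside Mt1 and did not pass the filter on low counts. It stood at 0, 0.244, 0.17, 0, 0.911 and 1.46 in WT and 1.55, 1.88, 81.7, 51.6, 53.8 and 48.3 in Ripk3KO, also without overlap, and without the filter its adjusted p was 8.24e-06. Mt3 and Mt4 had 0 counts in all 12 libraries, and a count of 0 allows up to 1.21 CPM in the smallest WT library and 0.605 in the smallest Ripk3KO library.

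Of 10 tested metallothionein and zinc genes Mt1 alone was called (0.399% of all genes were), and the median difference of the list was 0.29. Slc39a14, the zinc importer ZIP14, ranged from 172 to 258 in WT and from 249 to 636 in Ripk3KO (log2 1.07, adjusted p = 0.0585, edgeR with Benjamini-Hochberg adjustment). Mtf1, the zinc sensor, differed by 0.16 and the exporter Slc30a1 by 0.11, with adjusted p of 0.758 and 0.904.

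Il1r1, Il1rn and Cxcl1 rose, while the IL-1 ligand Il1b did not pass the test. Il1r1, the signalling IL-1 receptor, stood at 36.8, 39.5, 41.0, 29.8, 37.4 and 58.8 in WT and 107, 97.5, 349.6, 258, 303 and 359 in Ripk3KO (log2 difference 2.55, SE 0.33, adjusted p = 0.00284). The groups did not overlap, and Il1r1 was called in all 12 fits without 1 library. Il1rn, the secreted antagonist of that receptor, stood at 0.413 to 2.20 and 3.15 to 22.8 (log2 difference 2.93, SE 0.57, adjusted p = 0.0377). Without the library labelled Ripk3KO replicate 5 its adjusted p was 0.0778. Il1b stood at 6.34, 2.68, 6.80, 1.53, 5.92 and 9.76 in WT and 0.97, 0.418, 1.46, 2.04, 3.63 and 2.40 in Ripk3KO, a negative difference with overlapping groups (log2 difference -1.62, SE 0.47, adjusted p = 0.165). Within 1 clock phase (defined below) the Il1b difference was -0.20 (adjusted p = 0.946, edgeR with Benjamini-Hochberg adjustment). Cxcl1, which attracts neutrophils, stood at 3.03, 9.76, 2.38, 4.91, 1.82 and 10.7 in WT and 15.5, 14.8, 169, 159.6, 23.8 and 76.9 in Ripk3KO (log2 difference 3.75, SE 0.69, adjusted p = 0.0339). Cxcl1 was highest in Ripk3KO replicates 3 and 4, unlike Saa1 and Lcn2, which were highest in 5 and 6. Of 11 tested NF-kappaB targets and chemokines, Cxcl1 and Lcn2 were called higher (0.293% of all genes were) and none lower, with a list median of 0.72. Lcn2 is also counted among the acute phase calls. Tnf had at most 0.976 CPM and Il6 at most 0.157 CPM in any of the 12 libraries.

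Other called rises were spread over functions. Ttll8, a tubulin glycylase, stood at 0.138, 0.244, 0.51, 0.614, 0 and 0.488 in WT and 4.46, 3.56, 5.53, 3.62, 3.35 and 3.36 in Ripk3KO (log2 difference 3.43, SE 0.39, adjusted p = 0.00138), without overlap, and replicates 1 and 2 lay within the range of the other 4. Tacc2, a centrosome protein, rose by 2.5 (adjusted p = 0.0222, edgeR with Benjamini-Hochberg adjustment) and Cers6, a ceramide synthase, by 2.28 (adjusted p = 0.0133). Prg4, which encodes the lubricant lubricin, rose by 2.03 and Slc10a2, the apical bile acid transporter, by 1.85, with adjusted p of 0.0356 and 0.0458. Cyp17a1, a steroid hydroxylase, ranged from 1.71 to 8.20 in WT and from 8.81 to 23.7 in Ripk3KO (log2 difference 1.75, SE 0.34, adjusted p = 0.0377). Lrg1, a secreted glycoprotein, rose by 1.76 (adjusted p = 0.0339, edgeR with Benjamini-Hochberg adjustment). It stood at 447, 662, 1191, 1183, 2033 and 1965 in Ripk3KO, and Prg4 at 44.4, 56.9, 211, 127, 235 and 214. Both were lowest in replicates 1 and 2, like the acute phase genes. Without the library labelled Ripk3KO replicate 5 Prg4, Slc10a2, Cyp17a1 and Lrg1 had adjusted p of 0.0729, 0.0704, 0.0814 and 0.0701. Chosen after its values were seen, Cebpd, a C/EBP factor of the acute phase, stood at 4.88 to 11.0 and 13.0 to 27.8 (log2 difference 1.31, SE 0.22, adjusted p = 0.0237).

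Clock phase varied among the WT livers more than among the Ripk3KO livers. Arntl (BMAL1) and Dbp peak at opposite times of day, so their ratio orders livers by phase. The log2 ratio was 2.73, -5.84, 0.452, -8.01, 1.46 and 0.105 in WT replicates 1 to 6 and -6.99, -6.26, -5.77, -6.86, -6.12 and -7.57 in Ripk3KO. WT replicates 1, 3, 5 and 6 were thus high, while WT replicates 2 and 4 and all Ripk3KO libraries were low. The means of -1.52 ± 4.34 and -6.60 ± 0.663 differed by an exact permutation test (p = 0.0455, two-sided, n = 6 and 6). The hour at which each mouse was sampled is not given in the sources used here, so sampling time and genotype cannot be told apart.

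Arntl itself was the only called gene among 19 tested clock genes (0.399% of all genes were called). It stood at 33.4, 2.68, 21.4, 0.614, 15.5 and 17.3 in WT and 1.75, 2.72, 2.12, 1.10, 1.95 and 0.721 in Ripk3KO (log2 difference -3.17, SE 0.64, adjusted p = 0.0458). Phase was defined from Arntl itself, so its difference within a phase is no test. Without the library labelled Ripk3KO replicate 5 the adjusted p of Arntl, Rnf125, Fst and Ppp1r3c were 0.0905, 0.0704, 0.11 and 0.0905 (edgeR with Benjamini-Hochberg adjustment). Rnf125, a ubiquitin ligase, stood at 150.1, 28.1, 203, 25.5, 76.1 and 167 in WT and 18, 14.2, 26.5, 12.7, 27.2 and 26.4 in Ripk3KO (log2 difference -2.43, SE 0.47, adjusted p = 0.0377). The 4 WT libraries in the high phase held the 4 highest values, and within 1 phase (2 WT and 6 Ripk3KO libraries) the difference was -0.36 (adjusted p = 0.707). Fst, which encodes the activin antagonist follistatin, differed by -2.41 over all and -1.10 within 1 phase, and Ppp1r3c, a glycogen-targeting phosphatase subunit, by -2.05 and -0.90. Within 1 phase 44 of the 45 called genes kept their direction, which is favoured because that fit reuses libraries that chose them, all 6 Ripk3KO libraries included. Of the 45, Fasn, Gm3375 and Tsc22d1 stayed called in that smaller fit. Saa1, Mt1 and Il1r1 differed by 7.02, 6.66 and 2.83 there, with adjusted p of 0.341, 0.166 and 0.136.

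**Figure D3:**
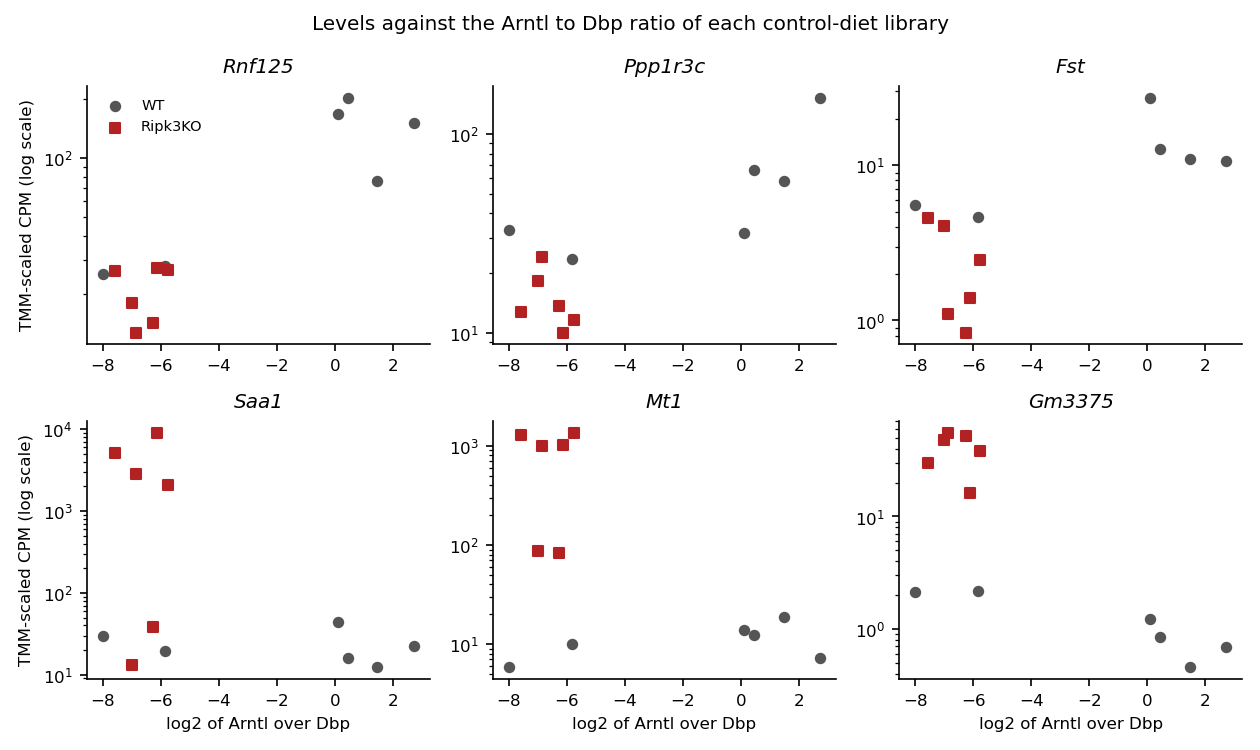
TMM-scaled CPM (log axis) of 6 called genes against the log2 ratio of Arntl to Dbp in each control-diet library, WT as grey circles and Ripk3KO as red squares. For Rnf125 the 2 WT libraries at the low ratio lie among or beside the Ripk3KO libraries, and for Mt1 and Gm3375 they lie below all of them.

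Of the fatty acid synthesis genes Fasn fell. Fasn, the fatty acid synthase, stood at 1214, 1811, 1733, 2098, 1181 and 756 in WT and 648, 672, 884, 645, 505 and 569 in Ripk3KO (log2 difference -1.19, SE 0.23, adjusted p = 0.0363). Only WT replicate 6 reached into the Ripk3KO range. Of 19 tested lipogenesis genes 16 had a negative difference, 6 of them with an unadjusted p under 0.05 (6.82% of all genes), and the list median was -0.43. Angptl8, an insulin-induced inhibitor of lipoprotein lipase, ranged from 48.3 to 489 in WT and from 38.4 to 99.1 in Ripk3KO (log2 -2.0, adjusted p = 0.0511, edgeR with Benjamini-Hochberg adjustment). Srebf1, the transcription factor of the pathway, differed by -1.17 (adjusted p = 0.0841) and Scd1, a desaturase, by -0.79 (adjusted p = 0.46). Within 1 clock phase Fasn differed by -1.58 (adjusted p = 0.0395), and 4 of the 7 genes called there, of 11877 tested (0.0589%), were list members, all 4 lower. Over all, its adjusted p was 0.104 without WT replicate 3 and 0.0877 without the library labelled Ripk3KO replicate 5.

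Of 21 tested cholesterol genes none was called, and 7 had an unadjusted p under 0.05, all lower, with a list median of -0.28. Insig1, which holds SREBP in the endoplasmic reticulum, ranged from 389 to 654 in WT and from 192 to 325 in Ripk3KO (log2 -0.86, adjusted p = 0.0505, edgeR with Benjamini-Hochberg adjustment), without overlap. Hmgcs1, an early enzyme of the pathway, differed by -1.06 (adjusted p = 0.11), while Sqle, a late one, differed by 0.27 (adjusted p = 0.752). Within 1 clock phase Hmgcs1 differed by -0.13 and Insig1 by -0.70, with adjusted p of 0.862 and 0.297 by the same test.

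Among the other falls, Tsc22d1, a leucine zipper protein induced by TGF-beta, had the smallest adjusted p. It stood at 87.2, 86.6, 73.6, 119, 131 and 82.7 in WT and 41.1, 33.7, 20.2, 37.0, 23.4 and 26.4 in Ripk3KO (log2 difference -1.72, SE 0.22, adjusted p = 0.00274), with no overlap and a call in all 12 fits without 1 library. Svil, an actin-binding protein, fell by 1.43 on the log2 scale (adjusted p = 0.02, edgeR with Benjamini-Hochberg adjustment). Apol7a, an apolipoprotein L, ranged from 111 to 175 in WT and from 52.6 to 78.6 in Ripk3KO (log2 difference -1.13, SE 0.17, adjusted p = 0.0133). G6pc, the glucose-6-phosphatase of glucose output, did not pass, at 1116, 552, 1292, 440.4, 829.9 and 895 in WT and 409.6, 347, 124, 137, 47.7 and 78.6 in Ripk3KO (log2 -2.20, adjusted p = 0.0585). Its groups did not overlap, and it was lowest in Ripk3KO replicates 5 and 6.

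The remaining lists had no called member by edgeR with Benjamini-Hochberg adjustment. In the unfolded protein list the median difference was 0.81, and 10 of 19 tested genes had an unadjusted p under 0.05 with a positive difference. Xbp1, a transcription factor of that response, ranged from 131 to 280.1 in WT and from 251 to 655 in Ripk3KO (log2 1.14, adjusted p = 0.0644, edgeR with Benjamini-Hochberg adjustment). The chaperone Hspa5 ranged from 430.2 to 1396 and from 907 to 4840.1, highest in Ripk3KO replicate 4, which was the highest Ripk3KO library in 11 of the 19 genes. Heat shock chaperones had a median of 0.51 with 6 of 20 past an unadjusted p of 0.05, all higher, and replicate 4 was the highest Ripk3KO library in 17 of 20. Hspb8, a small chaperone, differed by 1.06 (adjusted p = 0.0764).

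In the necroptosis and death receptor list 5 of 17 tested genes had an unadjusted p under 0.05, all higher, and the median was 0.21. Tnfrsf1a, the main TNF receptor, differed by 1.08 (adjusted p = 0.09, edgeR with Benjamini-Hochberg adjustment) and Ripk1, the partner kinase of RIPK3, by 0.65 (adjusted p = 0.164). Casp8, the protease that cleaves RIPK1 and RIPK3, ranged from 26.3 to 30.4 in WT and from 32.2 to 45.6 in Ripk3KO, without overlap (log2 0.49, adjusted p = 0.137). Interferon-stimulated genes had 0 of 17 past an unadjusted p of 0.05 and a median of -0.24. PPAR-alpha targets had a median of 0.43, and Cyp4a14, a fatty acid hydroxylase, stood at 199, 649, 64.4, 55.2, 5.72 and 0.961 in Ripk3KO against 6.89 to 21.2 in WT (log2 3.32, adjusted p = 0.181). It was highest in Ripk3KO replicates 1 and 2, where Saa1 was lowest. Matrix and fibrosis genes had a median of -0.40 and cell cycle genes 0.01, with 2 of 13 and 1 of 8 past an unadjusted p of 0.05.

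The other lists of liver metabolism and hormone response are given by their medians, against -0.03 over all genes. Glucocorticoid and fasting genes had a median of 0.00 with 3 higher and 3 lower of 20 past an unadjusted p of 0.05. Cytochrome P450 genes of families 1 to 3 had 0.26 (5 higher and 1 lower of 18), bile acid genes -0.03 (1 lower of 18), urea cycle genes 0.16 (1 higher of 18) and major urinary proteins -0.31 (0 of 17). Growth hormone and IGF genes had -0.07 (1 higher and 1 lower of 18). Genes of phosphatidylcholine, methionine and betaine metabolism had -0.02 (3 lower of 22), among them Chka, a choline kinase, at 30.7 to 304 in WT and 15.8 to 40.4 in Ripk3KO (log2 -2.17, adjusted p = 0.0867). Its difference had the opposite sign within 1 clock phase. Among stress lists, NRF2 targets had 0.01 (2 higher and 1 lower of 18), p53 targets -0.09 (1 higher and 2 lower of 15), immediate early genes 0.11 (2 higher and 3 lower of 15) and pyroptosis genes -0.13 (1 lower of 6). Oncofetal and tumour markers had -0.52 (3 lower of 6).

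**Figure D4:**
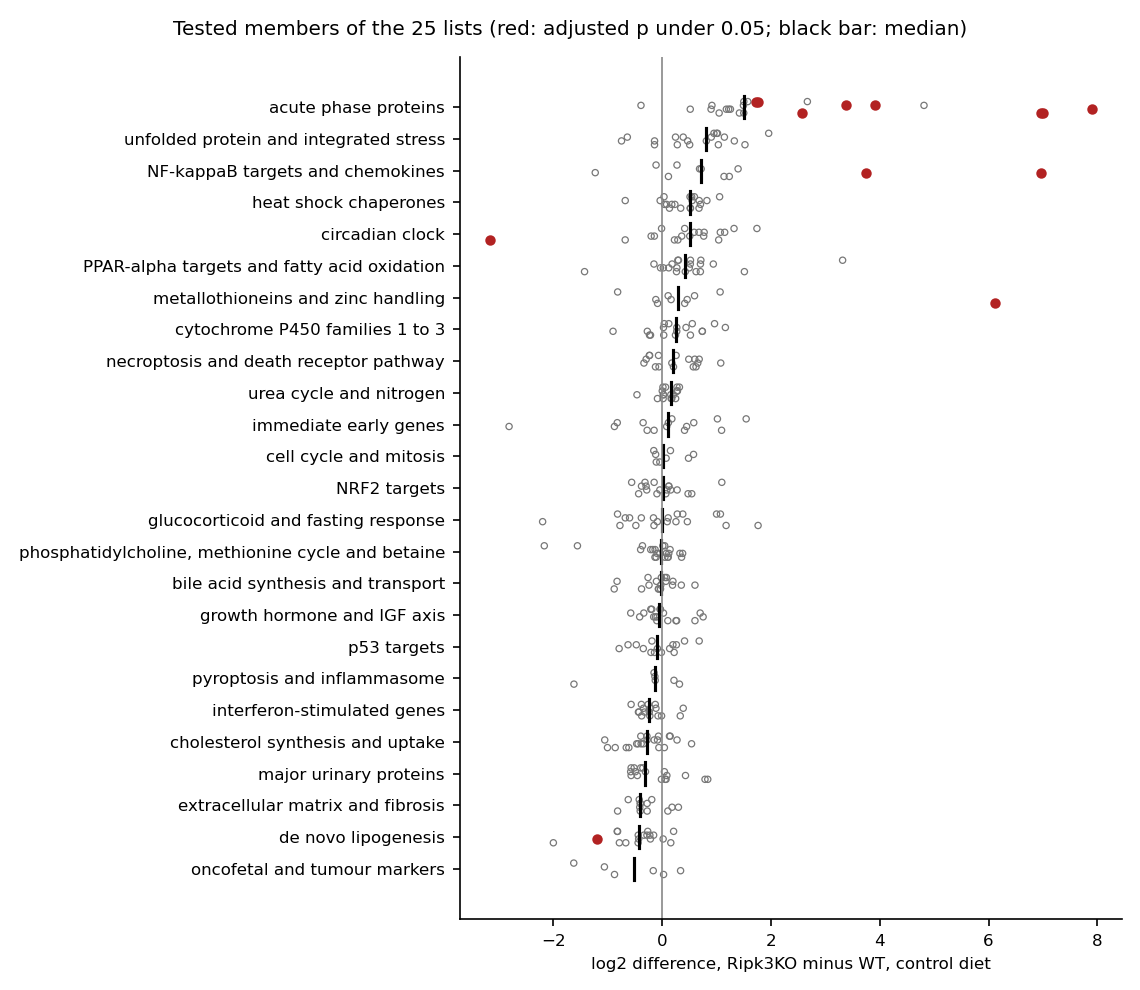
The log2 difference (Ripk3KO minus WT, control diet) of each tested member of 25 gene lists, ordered by list median (black bars), with called genes in red. The acute phase list has the highest median, 1.5, and red points appear in 5 of the 25 lists.

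Some of the called genes were also called on the choline-deficient diets. The Ripk3KO and WT mice on CD-LFD and CD-HFD share no library with the chow groups, but each fit that tested them also held the chow libraries. On CD-LFD 42 of the 45 genes differed in the same direction, with 6 called in a test that called 0.281% of 13502 genes. On CD-HFD it was 36 of 45, with 5 called (0.155% of 14148). A positive difference was found in 49.2% of all genes on CD-LFD and 46.3% on CD-HFD. The share of all genes that kept the chow direction was not computed, so the counts of 42 and 36 have no background. On CD-LFD the log2 ratio of Arntl to Dbp was -2.68 to -0.28 in WT and -7.48 to -6.20 in Ripk3KO. Clock phase and genotype therefore cannot be told apart on that diet. The median difference in the chow direction was 0.67 and 0.28 on these diets, against 2.05 on chow, where the genes were chosen. The genes named in the next sentences were chosen after their values were seen.

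Gm3375, a predicted gene, had the smallest adjusted p on chow and stood at 0.689, 2.20, 0.85, 2.15, 0.456 and 1.22 in WT and 47.9, 52.3, 37.9, 55.7, 16 and 30.0 in Ripk3KO (log2 difference 4.96, SE 0.39, adjusted p = 1.71e-05). Its lowest Ripk3KO value was in the library labelled Ripk3KO replicate 5. On CD-LFD it differed by 5.90 (SE 0.36, adjusted p = 4.14e-10), and on CD-HFD by 4.92 (SE 0.36, adjusted p = 9.15e-09). It was called in every fit without 1 library on all 3 diets. MlklKO chow livers held 0.146 to 1.30 CPM. Cebpe, a C/EBP factor of granulocyte maturation, stood at 11.3, 15.6, 11.6, 10.1, 17.3 and 18.1 in WT and 0.194, 0.418, 0, 0, 4.46 and 0 in Ripk3KO (log2 difference -3.88, SE 0.73, adjusted p = 0.0339). The library labelled Ripk3KO replicate 5 was the highest of the Ripk3KO libraries, and without it the difference was -6.68 (adjusted p = 1.82e-05). On CD-LFD and CD-HFD every Ripk3KO library was at or under 0.83 CPM and every WT library at or above 8.75.

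Psmb5, a catalytic subunit of the proteasome, stood at 85.5, 94.6, 79.0, 165, 144 and 105 in WT and 53.2, 52.7, 39.0, 49.4, 55.8 and 31.7 in Ripk3KO (log2 difference -1.30, SE 0.22, adjusted p = 0.0222). On CD-LFD the difference was -1.03 (SE 0.23, adjusted p = 0.0517), short of the threshold, and on CD-HFD it was -1.6 (SE 0.22, adjusted p = 0.000485). Fbxo31, a ubiquitin ligase subunit, stood at 38.1 to 83.5 in WT and 96.8 to 194 in Ripk3KO (log2 difference 1.2, SE 0.24, adjusted p = 0.0377), and was higher by 1.83 and 1.35 on CD-LFD and CD-HFD (adjusted p = 0.00952 and 0.0116). Without the library labelled Ripk3KO replicate 5 its adjusted p on chow was 0.0528. Within 1 clock phase the chow difference of Fbxo31 was 0.74 (adjusted p = 0.395, edgeR with Benjamini-Hochberg adjustment). Slc22a5, the carnitine transporter OCTN2, stood at 15.5 to 25.1 and 30.3 to 65.0 (log2 difference 1.2, SE 0.23, adjusted p = 0.0339), and was higher by 1.90 and 1.22 (adjusted p = 0.000727 and 0.0175). Eif4ebp3, a translation inhibitor, and Gm48199, a predicted gene, differed by 2.60 and 2.76 on chow and 2.38 and 2.70 on CD-LFD, with adjusted p of 0.02, 0.0301, 0.00966 and 0.0127. These differences on the other diets rest on few Ripk3KO libraries. Without Ripk3KO CD-LFD replicate 2 those on CD-LFD were 1.27 for Fbxo31, 2.02 for Gm48199 and 2.35 for Eif4ebp3, with adjusted p of 0.233, 0.298 and 0.0809 (edgeR with Benjamini-Hochberg adjustment). Without Ripk3KO CD-LFD replicate 1 the adjusted p of both Gm48199 and Eif4ebp3 was 0.0528. On CD-HFD Fbxo31 lost its call without Ripk3KO replicate 2 or 5 (0.069 and 0.0552). There Slc22a5 lost its call without Ripk3KO replicate 2, 3 or 5 or WT replicate 6 (0.0965, 0.0755, 0.0814 and 0.059).

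Cebpe and Psmb5 lie on the chromosome of Ripk3, 33 and 36 tested genes away in GENCODE M21 order. Of 392 tested genes on that chromosome 3 were called, the other being Tsc22d1 at 107 tested genes, where 0.399% of all tested genes were called. None of the 50 nearest tested genes was called by edgeR on any of the 3 diets, and 7 had an unadjusted p under 0.05 on chow, near the 11.9% of all tested genes. Of these Tgm1, a transglutaminase 7 tested genes from Ripk3, came closest (log2 1.28, adjusted p = 0.0505).

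The acute phase genotype difference on chow was not called on the other diets. Saa1 stood at 62.1 to 110.5 in WT and 104 to 178 in Ripk3KO on CD-LFD, and at 114 to 197 and 132 to 242 on CD-HFD. The genotype differences there were 0.71 and 0.30 (adjusted p = 0.892 and 0.958, edgeR with Benjamini-Hochberg adjustment). Both fits also held the chow libraries, where Saa1 ran from 13.2 to 9088 in Ripk3KO, and their spread estimate includes that range. A p above the threshold therefore does not show that a difference was absent on these diets. On CD-HFD Lcn2 stood at 304 to 592 in WT, where Ripk3KO held 393 to 579.8. The test of the difference itself, CD-HFD minus chow, called 20 of 14148 genes (0.141%), 16 of them with a lower and 4 with a higher Ripk3KO minus WT difference on CD-HFD. Among them were Saa1 (log2 difference -6.75, SE 1.30, adjusted p = 0.03), Lcn2 (log2 difference -6.86, SE 1.31, adjusted p = 0.0279), Mt1 (log2 difference -4.64, SE 0.86, adjusted p = 0.0271) and Ttll8 (log2 difference -3.94, SE 0.59, adjusted p = 0.00795). These genes were called on chow, and the contrast subtracts the same chow libraries, so a sign opposite to that on chow is favoured. Of the 45 genes called on chow, 13 were called here, all with the sign opposite to chow. Leaving out 1 of the 22 libraries raised the adjusted p of Saa1, Lcn2 and Mt1 to at most 0.124, 0.124 and 0.101, each without Ripk3KO CD-HFD replicate 5. For CD-LFD minus chow edgeR called 0 of 13502 genes, DESeq2 called 11, and 792 (5.87%) had an unadjusted p under 0.05. With 3 Ripk3KO libraries on CD-LFD, Saa1 gave -6.33 (SE 1.45, adjusted p = 0.454), short of the threshold. Mt1 groups did not overlap on either choline-deficient diet, with differences of 1.61 and 1.54 (adjusted p = 0.398 and 0.436, from the same fits).

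**Figure D5:**
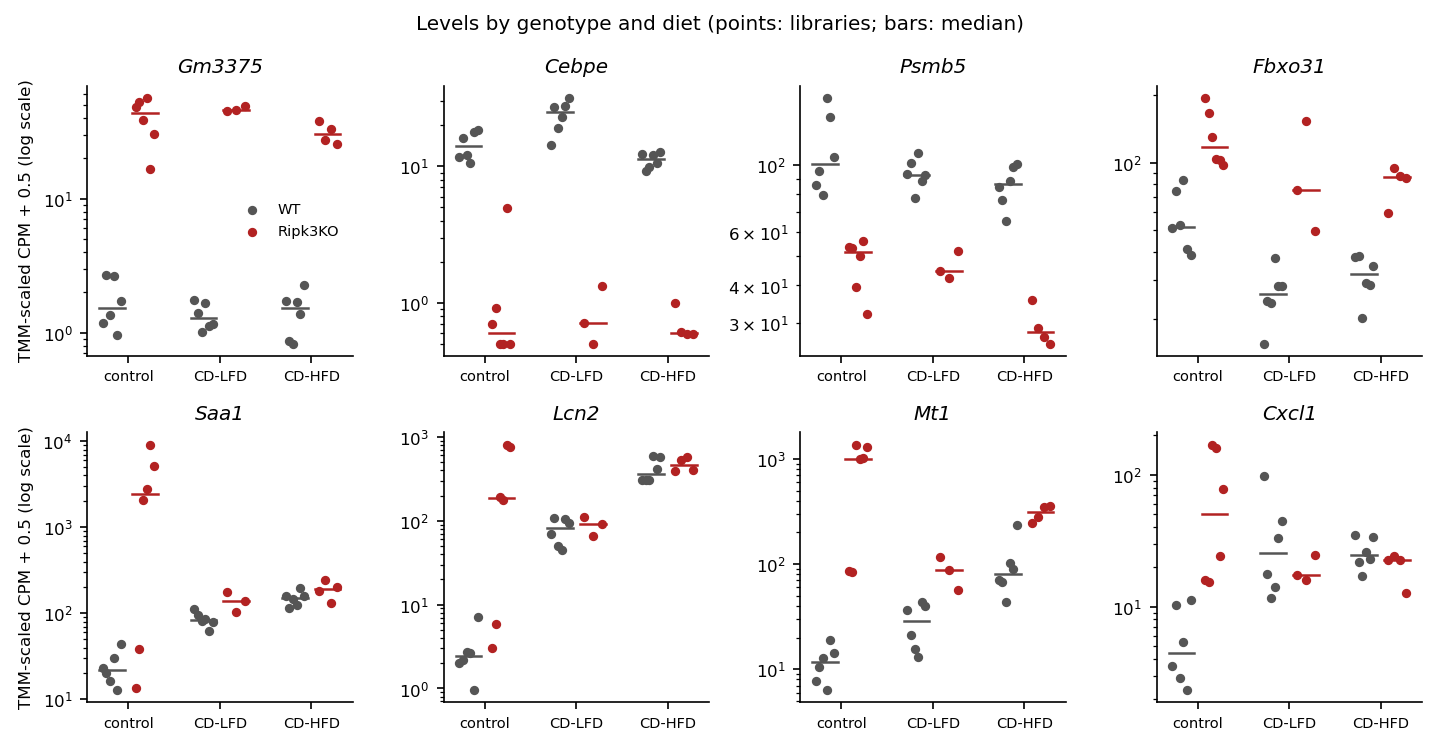
TMM-scaled CPM plus 0.5 (log axis) of 8 genes by genotype and diet, WT in grey and Ripk3KO in red, with a point per library and bars at the medians. The genotypes do not overlap for Gm3375, Cebpe, Psmb5, Fbxo31 and Mt1 on any of the 3 diets, nor for Cxcl1 on the control diet, and they overlap for Saa1 and Lcn2 on all 3.

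Mlkl was counted in every library labelled MlklKO on chow, at 3.01, 1.95, 1.88, 1.46, 3.03 and 2.23 TMM-scaled CPM in replicates 1 to 6, against 2.28 to 6.14 in WT. The ranges overlapped, and the difference from WT was -1.17 (SE 0.28, adjusted p = 0.0134). Which part of the gene was removed is not given in the sources used here. Each knockout is compared with the same 6 WT libraries, so likeness between the differences is partly built in and no overlap is given. MlklKO replicate 6 stood apart from the other 5. Saa1 stood at 1745, 1319, 953, 2807, 4047 and 472 in MlklKO replicates 1 to 6 and Lcn2 at 459, 239.6, 182, 319.5, 817 and 16.2. Mt1 stood at 2825, 2000.1, 2584, 2260.2, 4126 and 24.1 and Il1r1 at 769, 427, 429, 376, 539.6 and 148. Replicate 6 was the lowest for all 4 genes. The MlklKO minus WT differences were 6.25, 7.03, 7.64 and 3.42, against 7.0, 6.96, 6.12 and 2.55 for Ripk3KO. Tested directly, Ripk3KO minus MlklKO called 155 of 11581 genes (1.34%), 80 higher and 75 lower. Saa1, Lcn2 and Mt1 were not among them, at 0.76 (SE 0.98, adjusted p = 0.676), -0.06 (SE 0.99, adjusted p = 0.98) and -1.51 (SE 0.82, adjusted p = 0.29). Without MlklKO replicate 6 the differences were 0.56, -0.31 and -1.77, with adjusted p of 0.762, 0.861 and 0.0759 (edgeR with Benjamini-Hochberg adjustment). A p above the threshold does not show that the knockouts were alike.

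Genes that set Ripk3KO apart from MlklKO included Gm3375 (log2 difference 5.83, SE 0.40, adjusted p = 3.41e-06) and Psmb5 (log2 difference -0.98, SE 0.16, adjusted p = 0.0213). Without MlklKO replicate 3 the adjusted p of Psmb5 was 0.0585. Srxn1, an antioxidant enzyme under NRF2, ranged from 23.3 to 38.9 in Ripk3KO and from 261 to 618 in MlklKO replicates 1 to 5, with 29.5 in replicate 6 (log2 difference -3.51, SE 0.48, adjusted p = 0.0105). It stood at 27.8 to 48.9 in WT, a range that MlklKO replicate 6 fell into and the other 5 did not. Hhex, a liver transcription factor, ranged from 60.5 to 249.5 in Ripk3KO and from 13.1 to 38.7 in MlklKO (log2 difference 2.01, SE 0.35, adjusted p = 0.0213). In WT Hhex stood at 92.4 to 151, above every MlklKO library. The highest Ripk3KO value was in the library labelled Ripk3KO replicate 5, and the other 5 held 60.5 to 107. The call of Hhex was lost without Ripk3KO replicate 1 (adjusted p = 0.0535) and without MlklKO replicate 1, 2 or 3 (0.051, 0.0676 and 0.0618). Srxn1 and Gm3375 were called in all 12 fits without 1 library. The number of calls was 3 without MlklKO replicate 3 and 1129 without MlklKO replicate 6, and without each of the other libraries it ran from 10 to 298.

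Cell type markers gave no called gene in any of the 14 sets, which had 0 to 7 tested markers each. Hepatocyte markers summed to 86568 to 152134 CPM in WT and 99803 to 144876 in Ripk3KO, the highest of the 14 sums. Endothelial markers summed to 157 to 203 in WT and 110 to 165 in Ripk3KO, and Kdr, an endothelial VEGF receptor, differed by -0.73 (adjusted p = 0.0585, edgeR with Benjamini-Hochberg adjustment). Stellate cell markers summed to 223 to 257 and 146 to 233. T and NK cell markers stayed at 1.95 to 4.59 and 2.09 to 3.36, and the pancreatic markers Prss2 and Pnlip and the adipocyte markers Adipoq and Lep had 0 counts in all 12 libraries. Kdm5d and Ddx3y were counted in all 12 libraries and Xist reached at most 2.09 CPM.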

How the data were processed

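Libraries were made with the NEBNext Ultra II Directional kit, per the labels' protocols. The submitters' processing notes name FastQC, STAR, HTSeq, edgeR and limma and the build GRCm39 (mm39), without roles or settings. The deposited values are whole-number counts per gene, and the authors' handling of reads shared by paralogs is not given in the sources used here. Of 35249 genes, 876 had no matching symbol (0.0838% of counts).

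Genes passed edgeR's filter (minimum count 10) over the 12 libraries, 11268 genes with 99.6% of counts. Differences are log2 Ripk3KO minus WT from edgeR 4.0.16 quasi-likelihood tests (R 4.3.3) with TMM scaling, two-sided, Benjamini-Hochberg adjusted and called under 0.05. The SE is the log2 difference over the square root of F. The CD-LFD (21 libraries) and CD-HFD (22) comparisons used fits of 4 groups with an interaction. Alternatives used DESeq2 1.42.0, limma 3.58.1 and the settings named in the closing section. A count of 0 was given a floor of 3 counts, for counting error only. In simulated data 41% of 2-fold and 93% of 4-fold changes were recovered over 11268 genes. The simulation drew genes and libraries independently, without the mixed clock phase or the library split of the real data, so recovery there may be lower.

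Named genes are the 15 largest called rises and the called falls (11, the rule allowing 15) whose mean log2 CPM is 1 or more and whose symbol is not a predicted gene's, Ripk3 and Mlkl, and list members; 1 gene of these is not reported here. The comparison, the 25 gene lists and 14 marker sets were chosen with earlier results of these data known. Promoters and gene order come from GRCm38 tables, used for names, order and sequence only.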

Additional observations from a re-analysis of the deposited data

Results flagged for a closer look

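Of 142 checks for a library far from the other 5 of its group, 10 were positive, where chance gives about 1 in 20. Levels here are TMM-scaled CPM. In the library labelled Ripk3KO replicate 5, Ripk3 (1.26 CPM, others at most 0.325), Mlkl (8.09, others at most 4.40) and Cebpe (4.46, others at most 0.418) were high and Chka, a choline kinase, was low (15.8, others 32.1 to 40.4). Cyp4a14 was high in Ripk3KO replicate 2 (649, others at most 199). In WT replicate 6 Saa2 (39.5), Lcn2 (6.59) and Fst (27.3) were high, and in WT replicate 1 Mup15, a major urinary protein (283), and Ppp1r3c (153).

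The genotype difference on CD-HFD minus that on chow passed the interaction test (edgeR, Benjamini-Hochberg adjusted p 0.00795 to 0.0451) for 13 named genes. It was negative for Saa2 (-7.70), Lcn2 (-6.86), Saa1 (-6.75), Mt1 (-4.64), Cxcl1 (-4.20), Chac1, a glutathione-degrading enzyme (-4.02), Ttll8 (-3.94), Il1r1 (-2.44), Cers6 (-2.07) and the chaperone Hspa8 (-1.61). It was positive for Pdk4, a pyruvate dehydrogenase kinase (2.39), Zfp608 (1.77) and Tsc22d1 (1.37). Most of these genes were named for their values on chow, and the contrast subtracts the same chow libraries. A sign opposite to that on chow is therefore favoured.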

How the results depend on the processing

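The 45 calls on chow became 161 without the filter, 262 by DESeq2, 25 by limma-voom, 665 with all 44 libraries, 6 with clock phase as a covariate and 7 within 1 phase, and ran from 8 to 77 without 1 library. With the replicate number as a block there were 6, but the numbers did not pair the libraries (r -0.44 to 0.37 over 6 pairs, 1 of 6 best with its own number). Calls on CD-LFD (38) became 171 by DESeq2 and 164 with all 44 libraries, and ran from 5 to 74 without 1 library. Calls on CD-HFD (22) became 83 without the filter, 105 by DESeq2 and 56 with all 44, and ran from 3 to 39. The CD-LFD interaction (0) gave 1 without the filter, 11 by DESeq2 and 4 with all 44, and 0 to 6 without 1 library. The CD-HFD interaction (20) gave 139, 157 and 71, and 1 to 98. Ripk3KO minus MlklKO (155) gave 271 scaled to library size, 71 higher and 200 lower, 379 without the filter, 844 by DESeq2 and 1045 with all 44, and 3 to 1129 without 1 library.

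With clock phase as a covariate or within 1 phase the sign turned for Arntl (0.00941 and 0.0254), from which phase was defined, Ifit1 (0.0739 and 0.0911), Nr4a1 (0.63 and 0.65), Gclc (0.16 and 0.17), Rrm2 (-0.45 and -0.44), Chka (0.11 and 0.12) and Hal (0.21 and 0.22). The cause was not tested. Over single genes and settings, 2328 of 3161 values kept direction and side of the threshold, 748 lost the call, 71 gained it and 14 turned. Counts of 3 to 20 for Ripk3 in WT limit what low genes can show.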
